A study of Mus musculus with 3 samples.

Results

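The FoxP family comprises 4 forkhead transcription factors, and all 4, Foxp1, Foxp2, Foxp3 and Foxp4, were found by their gene symbol among the 25206 genes measured in the tibialis anterior of mice. Muscles were compared in 3 groups of male CD2F1 mice (the strain is given as CD2 in the sample labels). C26 FoxP1-shRNA mice bore colon 26 (C26) adenocarcinoma, a mouse tumour that causes cachexia, and carried an adeno-associated virus serotype 9 (AAV9) vector for an shRNA against FoxP1. C26 scrambled mice bore the same tumour and carried AAV9 with a scrambled shRNA, and Sham mice received saline in place of tumour cells and the same scrambled shRNA. All mice thus carried a vector, injected at 10 weeks of age at 1e+11 vector genomes per muscle, and tumour mice received 500000 cells in each flank 2 weeks later. Muscles were taken 26 days after inoculation. The FoxP1-shRNA vector was marked with mCherry and the scrambled vector with GFP, so that shRNA and marker cannot be told apart, and no Sham muscle with FoxP1-shRNA was analysed here. RNA of 3 mice was pooled for each Mouse Gene 2.0 ST array, with 1 array per group, so that no value has an error, no comparison has a p-value, and no difference can be set against the spread between mice.

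FoxP proteins bind DNA through a forkhead domain placed near the carboxyl end and pair with one another through a zinc finger and leucine zipper. FoxP1, FoxP2 and FoxP4 form homodimers and heterodimers, and the family mostly represses transcription, with help from corepressors and histone deacetylases. FoxP1 is broadly expressed and acts in heart, lung, B cell and T cell development, FoxP2 is known for its part in brain circuits for vocal learning and in lung, FoxP3 defines regulatory T cells, and FoxP4 is the close relative of FoxP1 and FoxP2 in lung, gut and brain. In muscle, the related FoxO forkhead factors drive genes of protein breakdown during wasting.

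Values are log2 expression values after Robust Multiarray Average (RMA), which gives 1 value per gene. A difference of 1 between 2 values of a gene is a 2-fold difference, and levels of different genes cannot be compared on this scale. The median gene of the array lay at 3.99 in C26 FoxP1-shRNA, 4.05 in C26 scrambled and 4.06 in Sham. All 15 measured markers of skeletal muscle fibres, such as the actin and creatine kinase genes of muscle, lay within the brightest genes of each array, the dimmest of them at percentile 99.1 in C26 FoxP1-shRNA, 98.2 in C26 scrambled and 98.8 in Sham.

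Foxp1, the gene targeted by the shRNA, had a log2 value of 6.52 in C26 FoxP1-shRNA muscle, 7.31 in C26 scrambled muscle and 6.41 in Sham muscle. The tumour array with scrambled shRNA stood above the other two. With FoxP1-shRNA, Foxp1 was 1.73-fold lower than in C26 scrambled, a log2 difference of -0.79, and 537 of the 25206 genes (2.13%) had a difference as low or lower. In C26 scrambled against Sham its log2 difference was 0.90, which 1077 genes (4.27%) reached or passed. Among genes brighter than the array median on at least 1 array, the shares were 3.19% and 7.19%. The C26 FoxP1-shRNA value lay 0.11 above Sham on the log2 scale, so that 87.9% of the difference between C26 scrambled and Sham was missing from it. This share and both differences rest on the same C26 scrambled array. The probes are summarised to 1 value per gene, for which RefSeq lists 41 transcripts, 4 of them curated, so that isoforms of Foxp1 cannot be told apart.

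RefSeq gives 3 start regions of Foxp1 on the minus strand of chromosome 6, shown here because Foxp1 is the member that differed most over the arrays. In 2 of them a search found letters of the forkhead core (GTAAACA, its variant ATAAACA, the variant GCAAACA or the variant ACAAACA, searched on both strands). The windows with a match are printed from RefSeq, build GRCm38.p6, from 250 bases before to 50 bases after the start, with the matches in capitals.
Foxp1 window 1, chr6:99520944-99521243, minus strand: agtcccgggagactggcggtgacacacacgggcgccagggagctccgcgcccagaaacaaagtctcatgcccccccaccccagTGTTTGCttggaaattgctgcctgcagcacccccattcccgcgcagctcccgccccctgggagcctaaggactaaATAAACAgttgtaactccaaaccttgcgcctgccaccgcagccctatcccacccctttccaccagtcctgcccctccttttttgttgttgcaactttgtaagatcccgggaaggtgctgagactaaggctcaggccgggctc
Foxp1 window 2, chr6:99266466-99266765, minus strand: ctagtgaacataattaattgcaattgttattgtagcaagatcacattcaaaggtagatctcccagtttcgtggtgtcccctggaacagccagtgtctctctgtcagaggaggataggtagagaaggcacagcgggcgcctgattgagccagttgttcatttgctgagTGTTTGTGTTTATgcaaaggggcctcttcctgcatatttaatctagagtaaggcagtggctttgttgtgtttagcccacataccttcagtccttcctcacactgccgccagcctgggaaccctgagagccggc
Window 1 held ATAAACA on the strand of the gene and GCAAACA on the opposite strand, where it reads TGTTTGC in the printed sequence. Window 2 held ACAAACA and ATAAACA on the opposite strand, and these share a base. Any of the 4 cores occurred in 17.7% of the 32851 RefSeq windows of this length, and singly they occurred in 3.65% (GTAAACA), 4.60% (ATAAACA), 5.07% (GCAAACA) and 6.61% (ACAAACA). Over the 6 windows given for 3 members (Foxp1, Foxp3 and Foxp4), the core GTAAACA was not found. One of the Foxp3 windows held ATAAACA, and the Foxp4 window held no core. Also searched were TATTTGT and TATTTAT, which occurred in 3.63% and 5.60% of all windows. TATTTGT was found in the other Foxp3 window only, and TATTTAT in no window of the members. A match is a run of letters and was not tested for binding, and which of the Foxp1 starts is used in muscle was not measured by the arrays.

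Foxp2 was highest in the array with FoxP1-shRNA, the opposite direction to Foxp1 between the tumour arrays. Its log2 value was 4.99 in C26 FoxP1-shRNA, 4.64 in C26 scrambled and 4.39 in Sham. Relative to C26 scrambled it was 1.28-fold higher with FoxP1-shRNA (log2 difference 0.35), a difference that 13.0% of all genes reached or passed. Against Sham, Foxp2 was 1.52-fold higher in C26 FoxP1-shRNA (0.61, reached or passed by 5.34% of genes) and 1.19-fold higher in C26 scrambled (0.25, 26.9% of genes). Its value lay above the array median on all 3 arrays, but not far above, at percentile 64.0 in C26 FoxP1-shRNA, 59.5 in C26 scrambled and 55.0 in Sham. Whether values at this level stand above background was not tested.

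Foxp3 lay below the array median on all 3 arrays and had the reverse order of Foxp2. Its log2 value was 2.92 in C26 FoxP1-shRNA, 3.23 in C26 scrambled and 3.61 in Sham. In C26 FoxP1-shRNA it was 1.61-fold lower than in Sham (log2 difference -0.69), and 4.67% of genes were as low or lower. In C26 FoxP1-shRNA against C26 scrambled the difference was -0.31, with 17.9% of genes as low or lower, and in C26 scrambled against Sham it was -0.37, with 17.4%. A gene this dim gives less certain folds than Foxp1.

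Foxp4 varied least of the 4 members over the arrays. Like Foxp2 it lay not far above the array median, at percentile 56.7 in C26 FoxP1-shRNA, 59.2 in C26 scrambled and 58.4 in Sham. Whether its values stand above background was not tested. It had a log2 value of 4.43 in C26 FoxP1-shRNA, 4.61 in C26 scrambled and 4.62 in Sham, a range of 0.19, whereas the range was 0.90 for Foxp1, 0.69 for Foxp3 and 0.61 for Foxp2. Foxp4 was 1.13-fold lower in C26 FoxP1-shRNA than in C26 scrambled (log2 difference -0.18, with 31.4% of genes as low or lower) and 1.14-fold lower than in Sham (-0.19). Between C26 scrambled and Sham it differed by -0.01, and the sign of this difference turned under 3 of 4 other scalings of the arrays.

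**Figure D1:**
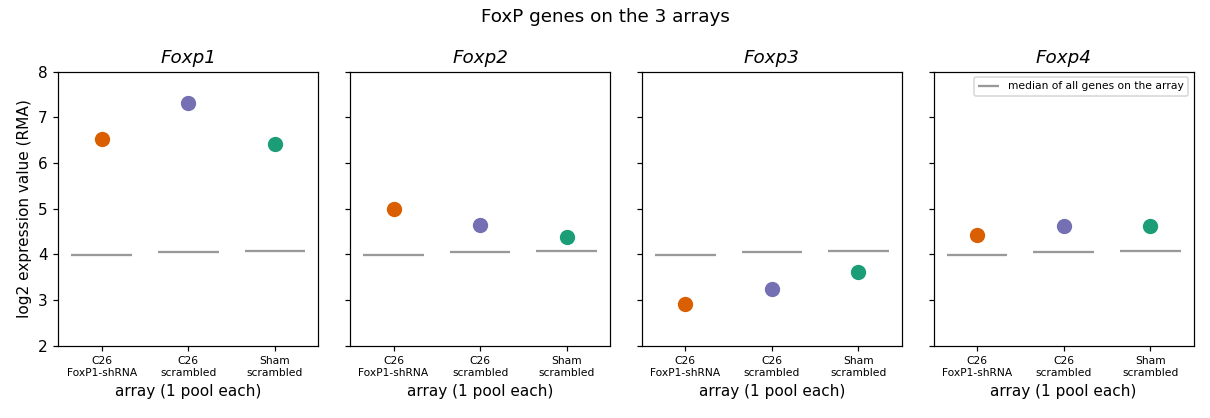
Log2 expression value (y axis) of Foxp1, Foxp2, Foxp3 and Foxp4 on each array (x axis: C26 FoxP1-shRNA, C26 scrambled, Sham; 1 point is 1 pool of 3 mice) with the median of all genes of that array as a grey line. Foxp1 was highest in C26 scrambled (7.31), Foxp2 was highest (4.99) and Foxp3 lowest (2.92) in C26 FoxP1-shRNA, and Foxp4 stayed between 4.43 and 4.62.

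At a fixed size of 2-fold, 0 of the 4 members passed in any of the 3 comparisons. Across all genes, C26 FoxP1-shRNA against C26 scrambled had 1.44% of genes at least 2-fold higher and 1.06% at least 2-fold lower. C26 FoxP1-shRNA against Sham had 1.61% and 2.17%, and C26 scrambled against Sham had 3.34% and 4.33%. At 1.5-fold, Foxp1 was the 1 member lower in C26 FoxP1-shRNA than in C26 scrambled, where 4.96% of all genes were lower, and none was higher (5.43% of all genes). Foxp1 was also the 1 member higher in C26 scrambled than in Sham (10.1% of all genes), with none lower (10.5%). In C26 FoxP1-shRNA against Sham, Foxp2 was higher (5.76% of all genes) and Foxp3 lower (6.4%), and Foxp1 was not past this size. With only 4 members, these counts add nothing to the values of the genes themselves.

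**Figure D2:**
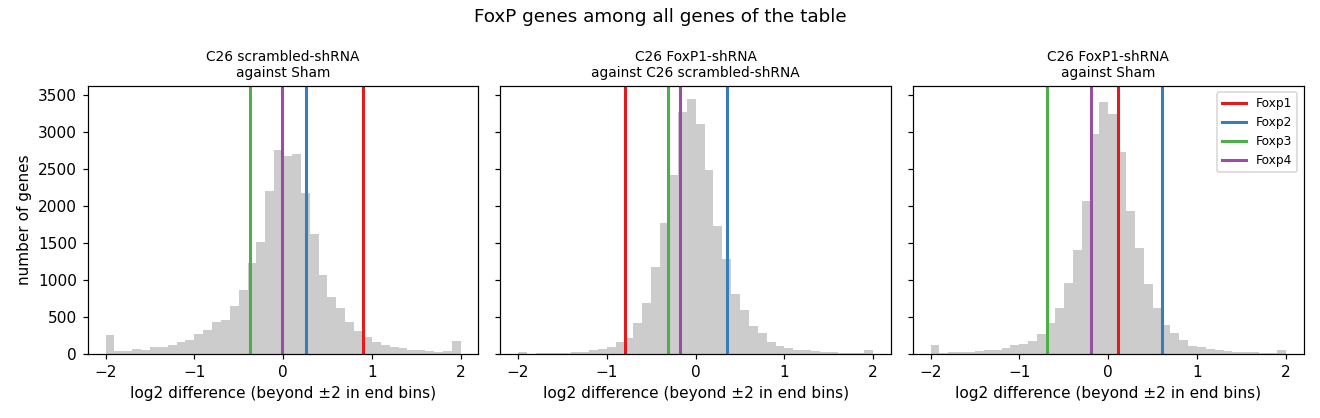
Number of genes (y axis) by log2 difference (x axis) over all 25206 genes in the 3 comparisons, with the FoxP genes as vertical lines. Foxp1 stands toward the high end in C26 scrambled against Sham (0.90) and toward the low end in C26 FoxP1-shRNA against C26 scrambled (-0.79), and Foxp2 (0.61) and Foxp3 (-0.69) stand toward opposite ends in C26 FoxP1-shRNA against Sham.

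Among the 43 measured forkhead genes, Foxp1 had the lowest log2 difference in C26 FoxP1-shRNA against C26 scrambled and stood in place 5 from the top in C26 scrambled against Sham. Foxo1, a FoxO factor of muscle wasting, came next to it with FoxP1-shRNA, at a log2 difference of -0.72. Its log2 value was 8.12 in C26 FoxP1-shRNA, 8.84 in C26 scrambled and 6.46 in Sham, so that in C26 FoxP1-shRNA it still stood 1.66 above Sham, against 0.11 for Foxp1. Foxj3, a forkhead activator of the Mef2c gene in muscle, had 7.52 in C26 FoxP1-shRNA, 8.11 in C26 scrambled and 7.13 in Sham, a log2 difference of -0.59 with FoxP1-shRNA and of 0.98 in C26 scrambled against Sham. These 3 genes stood highest on the C26 scrambled array.

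Of the 39 forkhead genes outside the family, 0 were past 2-fold in C26 FoxP1-shRNA against C26 scrambled, and 3 were at least 2-fold higher in C26 scrambled than in Sham, with 0 lower. Over all genes, 1.44% were higher and 1.06% lower in the former comparison, and 3.34% higher and 4.33% lower in the latter. The 3 were Foxo1, Foxo3 and Foxk1. Foxo3, a second FoxO factor, had log2 values of 6.90 in C26 FoxP1-shRNA, 7.12 in C26 scrambled and 5.54 in Sham. Foxk1, a forkhead factor of muscle stem cells, had 7.75 in C26 FoxP1-shRNA, 7.82 in C26 scrambled and 6.68 in Sham. Both therefore differed little between the tumour arrays (-0.22 and -0.07), unlike Foxp1. Foxn3, a forkhead repressor of cell cycle genes, had the mirror order, with 7.91 in C26 FoxP1-shRNA, 7.29 in C26 scrambled and 8.15 in Sham. Its difference with FoxP1-shRNA (0.62) was the highest of the 43 and its difference in C26 scrambled against Sham (-0.87) the lowest. Foxp2 was the third highest of the 43 with FoxP1-shRNA, and Foxp3 was the lowest of the 43 in C26 FoxP1-shRNA against Sham. At 1.5-fold, 1 of the 39 others was higher and 2 were lower with FoxP1-shRNA than in C26 scrambled, beside 5.43% and 4.96% of all genes. In C26 scrambled against Sham, 7 were higher and 1 was lower at this size, beside 10.1% and 10.5%. Only 23 of the 39 lay above the array median on at least 1 array. The median of the 39 was -0.07 in C26 FoxP1-shRNA against C26 scrambled and 0.08 in C26 scrambled against Sham, beside -0.03 and 0.03 over all genes.

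**Figure D3:**
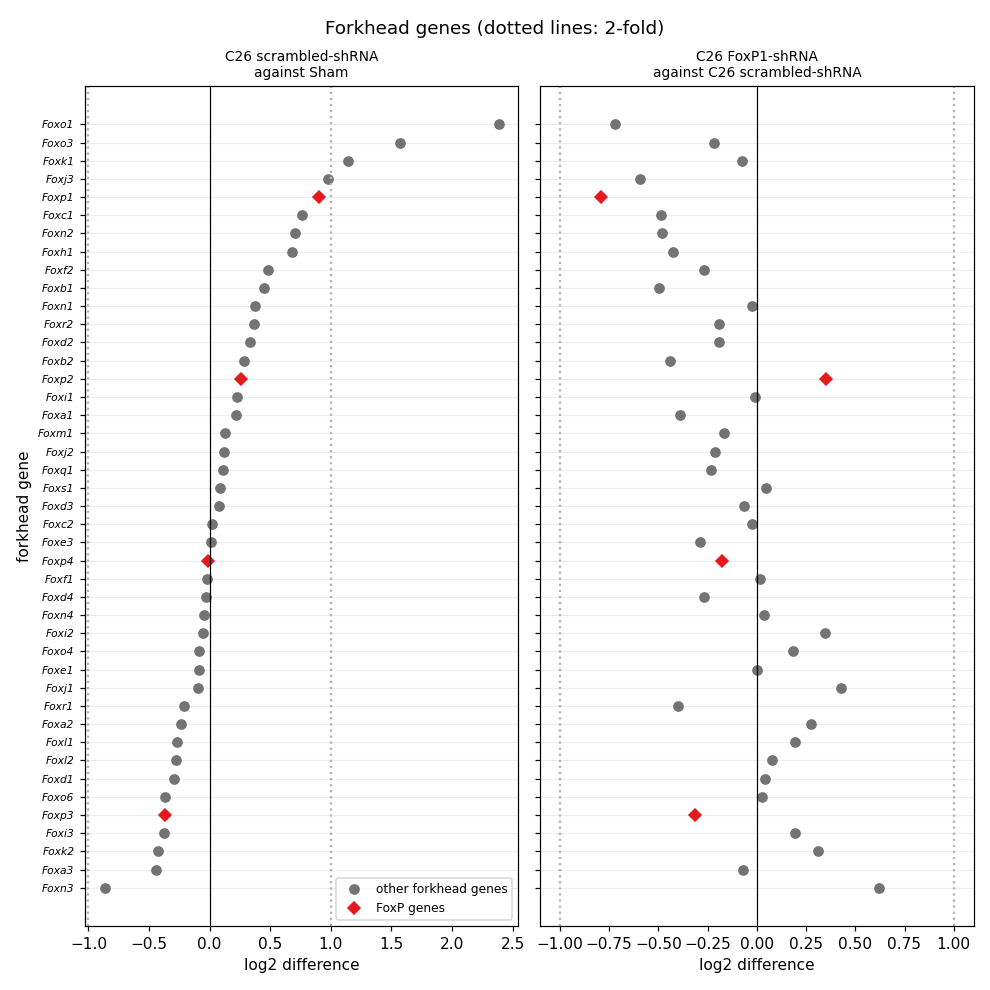
Log2 difference (x axes) of each of the 43 measured forkhead genes (y axis, ordered by the left panel) in C26 scrambled against Sham (left) and in C26 FoxP1-shRNA against C26 scrambled (right), with FoxP genes as red diamonds. The panels share the C26 scrambled array, so that a high value there moves a gene right in one and left in the other. Foxp1 is in place 5 from the top on the left (0.90) and lowest on the right (-0.79).

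Foxp1 has another measured gene inside it. Gm19665, a non-coding gene placed within Foxp1 by the RefSeq gene table, had log2 values of 3.74 in C26 FoxP1-shRNA, 4.51 in C26 scrambled and 3.59 in Sham. Its differences were nearly those of Foxp1, at -0.77 with FoxP1-shRNA and 0.92 in C26 scrambled against Sham. It lay above the array median only in C26 scrambled. Whether its probes fall within Foxp1 transcripts is not given in the sources used here, so that its values cannot be taken as separate from those of Foxp1.

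The other measured genes next to Foxp1 did not share its pattern to the same extent. Eif4e3, a cap-binding protein gene, had 7.03 in C26 FoxP1-shRNA, 7.05 in C26 scrambled and 6.89 in Sham, and the receptor gene Gpr27 had 4.42 in C26 FoxP1-shRNA, 4.50 in C26 scrambled and 4.53 in Sham. Mitf, a transcription factor of melanocytes and osteoclasts, was also highest in C26 scrambled, with smaller differences than Foxp1 (-0.47 with FoxP1-shRNA and 0.43 in C26 scrambled against Sham). Gm765 differed by -0.16 and 0.16 in these comparisons. Frmd4b, a scaffold protein gene, was lowest in C26 scrambled, with 6.52 in C26 FoxP1-shRNA, 5.94 in C26 scrambled and 6.39 in Sham.

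**Figure D4:**
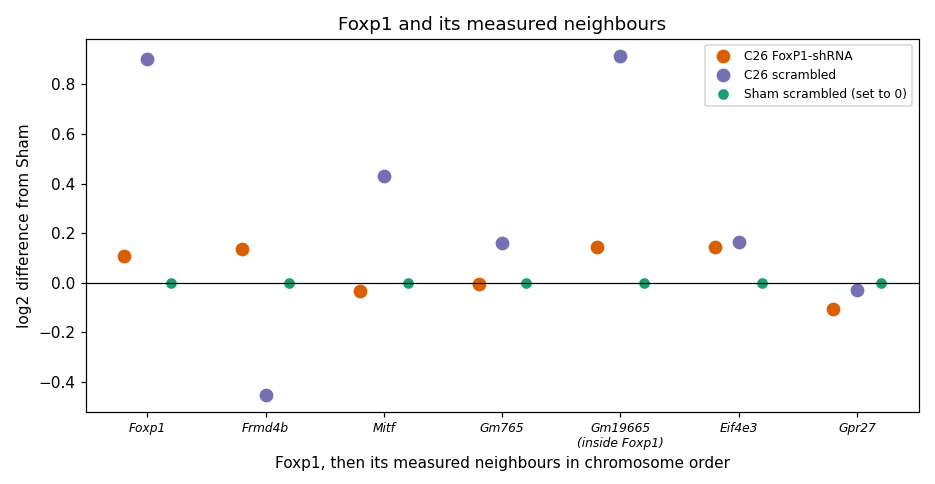
Log2 difference from Sham (y axis) of C26 FoxP1-shRNA and C26 scrambled for Foxp1 and the measured genes around it (x axis). Gm19665 lies at the same heights as Foxp1 (0.15 and 0.92, against 0.11 and 0.90), whereas Eif4e3 and Gpr27 differ from Sham by 0.16 or less on both arrays.

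Around Foxp2, a neighbour among the brighter genes of the arrays was Ppp1r3a, the muscle subunit that directs protein phosphatase 1 to glycogen. Ppp1r3a had 9.96 in C26 FoxP1-shRNA, 9.19 in C26 scrambled and 10.29 in Sham, and so was 2.14-fold lower in C26 scrambled than in Sham, where Foxp2 was 1.19-fold higher. On its other flank Mdfic, a relative of the MyoD inhibitor gene Mdfi, had 5.54 in C26 FoxP1-shRNA, 5.89 in C26 scrambled and 6.18 in Sham. Neither had the order of Foxp2. Of the other measured neighbours, Tfec differed by 0.08 both with FoxP1-shRNA and in C26 scrambled against Sham, Gm15473 by -0.17 with FoxP1-shRNA and 0.03 in C26 scrambled against Sham, and 2610001J05Rik and 1110019D14Rik stood lowest in C26 scrambled.

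Around Foxp3, Flicr, a non-coding RNA gene that overlaps it and is known as a regulator of Foxp3 in regulatory T cells, had the same order at a very dim level, with 2.24 in C26 FoxP1-shRNA, 2.37 in C26 scrambled and 2.53 in Sham. Ccdc22, which overlaps Foxp3 and takes part in endosomal sorting, had the other order, with 5.25 in C26 FoxP1-shRNA, 5.21 in C26 scrambled and 4.86 in Sham. Ppp1r3f, Cacna1f, Syp and 2010204K13Rik differed from Sham by 0.37 or less in C26 scrambled. Beside Foxp4, Mdfi, an inhibitor of MyoD family factors, was 1.59-fold higher with FoxP1-shRNA than in Sham, with 4.22 in C26 FoxP1-shRNA, 4.10 in C26 scrambled and 3.55 in Sham. Tfeb, a regulator of lysosomal genes, had 5.42 in C26 FoxP1-shRNA, 5.15 in C26 scrambled and 5.63 in Sham, and Pgc, a digestive enzyme gene of stomach, had 3.56 in C26 FoxP1-shRNA, 3.53 in C26 scrambled and 3.57 in Sham. The last 3 neighbours of Foxp4, 1700122O11Rik, 1700067P10Rik and 9830107B12Rik, were dim and differed from Sham by 0.44 or less in C26 scrambled.

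To place the pattern of Foxp1 among all genes, its 2 log2 differences (C26 scrambled against Sham, and C26 FoxP1-shRNA against C26 scrambled) were compared with those of the 12679 genes that had a symbol and lay above the array median on at least 1 array. Likeness was the distance between the pairs of differences over the 3 arrays. The closest gene was Dbt, a subunit of branched-chain ketoacid dehydrogenase, at a distance of 0.018, with 7.22 in C26 FoxP1-shRNA, 8.02 in C26 scrambled and 7.10 in Sham. Gtf2a1, a general transcription factor, followed at 0.019 and Tmem120b at 0.022, and then Speer4cos, Gm19665, Dtx2, Trafd1, Hp1bp3, Tubb6 and Pde4d, the last at 0.047. In all, 32 genes lay within 0.1 of Foxp1. The order among them depended on scaling, since 4 of the 10 were still among the closest 10 after quantile normalization and 6 after cyclic loess.

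Corepressors that FoxP proteins work with were measured in 20 of 22 cases, and 0 of 20 were past 2-fold, or past 1.5-fold, in C26 FoxP1-shRNA against C26 scrambled. Over all genes, 1.44% were at least 2-fold higher and 1.06% lower there, and at 1.5-fold 5.43% and 4.96%. The median of the list was -0.13 there, beside -0.03 over all genes. Against Sham, the 1 gene at least 2-fold higher in C26 scrambled was Gps2, a subunit of the nuclear receptor corepressor complex, with 8.76 in C26 FoxP1-shRNA, 8.67 in C26 scrambled and 7.64 in Sham. It was as high with FoxP1-shRNA as without it. At 1.5-fold the count in C26 scrambled against Sham was 5 higher and 0 lower, while the median of the list was -0.10. Over all genes, 10.1% were higher and 10.5% lower at this size, and 3.34% were at least 2-fold higher.

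The other 4 of these 5 were Mta2, Tbl1xr1, Rbbp4 and Mta1. Mta2, a subunit of the nucleosome remodelling and deacetylase (NuRD) complex, had 7.61 in C26 FoxP1-shRNA, 8.07 in C26 scrambled and 7.23 in Sham. Tbl1xr1, of the nuclear receptor corepressor complex, had 7.61 in C26 FoxP1-shRNA, 8.10 in C26 scrambled and 7.28 in Sham, and the histone-binding protein Rbbp4 had 7.27 in C26 FoxP1-shRNA, 7.79 in C26 scrambled and 7.17 in Sham. These 3 shared the order of Foxp1, with differences of -0.47, -0.49 and -0.52 with FoxP1-shRNA. Mta1, a second NuRD subunit, had 8.41 in C26 FoxP1-shRNA, 8.59 in C26 scrambled and 7.74 in Sham, and so kept most of its difference from Sham. Chd4, the NuRD remodelling enzyme, differed by -0.38 with FoxP1-shRNA.

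Other corepressors had the mirror order. Ctbp1, a corepressor that binds FoxP1 and FoxP2, had 8.61 in C26 FoxP1-shRNA, 8.08 in C26 scrambled and 8.66 in Sham. Mbd3, a core subunit of NuRD, had 7.43 in C26 FoxP1-shRNA, 6.93 in C26 scrambled and 7.47 in Sham. The deacetylase Hdac2 had 7.40 in C26 FoxP1-shRNA, 7.15 in C26 scrambled and 7.73 in Sham. Hdac1 and Hdac3 had the same order with smaller differences. Hdac1 stayed between 3.99 and 4.20, near the array median, and Hdac3 between 7.77 and 8.04. Ctbp2, the partner of Ctbp1, was lowest with FoxP1-shRNA (5.78, against 6.01 in C26 scrambled and 6.41 in Sham).

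Among 9 measured other partners of FoxP proteins, 0 were past 2-fold in any comparison, a size reached by at most 4.33% of all genes in either direction. Runx1, a Runt factor that is known to bind FoxP3 and to rise in denervated muscle, had 6.29 in C26 FoxP1-shRNA, 6.29 in C26 scrambled and 5.40 in Sham. Nfatc2, a calcium-regulated factor that pairs with FoxP3 on DNA, had 5.71 in C26 FoxP1-shRNA, 5.13 in C26 scrambled and 5.96 in Sham, the mirror order of Foxp1. Tbr1, a brain partner of FoxP2, was dim at 2.59 in C26 FoxP1-shRNA, 2.33 in C26 scrambled and 3.07 in Sham.

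Genes known as FoxP targets in other tissues had no common direction in the knockdown comparison. Of 15 genes described as FoxP1 targets in lung, heart, blood cells and vessels, 1 was at least 2-fold higher and 1 at least 2-fold lower in C26 FoxP1-shRNA than in C26 scrambled, with a median of -0.05 beside -0.03 over all genes. Only 8 of the 15 lay above the array median on at least 1 array. Whether the dimmer ones stand above background was not tested, so that their small differences say little about a response. Over all genes, 1.44% were at least 2-fold higher and 1.06% at least 2-fold lower. The one higher was Fgf20, a growth factor gene, with 4.48 in C26 FoxP1-shRNA, 3.48 in C26 scrambled and 3.77 in Sham. Fgf20 lay above the array median only in C26 FoxP1-shRNA. The one lower was Cdkn1a, the cell cycle inhibitor p21, with 9.29 in C26 FoxP1-shRNA, 10.94 in C26 scrambled and 7.11 in Sham. Cdkn1a and Nox4, an NADPH oxidase gene, were the 2 of 15 at least 2-fold higher in C26 scrambled than in Sham (3.34% of all genes). Nox4 had 6.46 in C26 FoxP1-shRNA, 6.64 in C26 scrambled and 4.85 in Sham and thus was nearly as high with FoxP1-shRNA. Il7r, the interleukin 7 receptor of lymphocytes, was the 1 lower gene (2.57 in C26 FoxP1-shRNA, 2.79 in C26 scrambled and 3.95 in Sham). It lay below the array median on all 3 arrays, and without such dim genes the count of lower genes was 0. Csf1r, the receptor of monocytes and macrophages, had 5.85 in C26 FoxP1-shRNA, 5.80 in C26 scrambled and 6.62 in Sham. The median of the 15 was 0.11 in C26 scrambled against Sham, where 4.33% of all genes were at least 2-fold lower.

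Of 12 FoxP2 targets described in brain and lung, 0 were past 2-fold with FoxP1-shRNA against C26 scrambled (median -0.12), and 1 was higher and 2 were lower in C26 scrambled than in Sham (median -0.10). Over all genes, 1.44% were higher and 1.06% lower between the tumour arrays, and 3.34% and 4.33% in C26 scrambled against Sham. The higher one was Plaur, the urokinase receptor, with 4.71 in C26 FoxP1-shRNA, 5.66 in C26 scrambled and 4.38 in Sham. The lower ones were Rarb, a retinoic acid receptor (4.86 in C26 FoxP1-shRNA, 4.61 in C26 scrambled and 5.81 in Sham), and Mdga1, an adhesion molecule of neurons (4.19 in C26 FoxP1-shRNA, 4.41 in C26 scrambled and 5.57 in Sham). Cntnap2, a neurexin-like gene that FoxP2 represses in neurons, had 4.33 in C26 FoxP1-shRNA, 3.45 in C26 scrambled and 3.98 in Sham. The receptor Met, also known as repressed by FoxP2, had 6.46 in C26 FoxP1-shRNA, 5.63 in C26 scrambled and 6.55 in Sham. Both were higher in C26 FoxP1-shRNA than in C26 scrambled, as was Foxp2 itself.

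Of 10 genes known to be bound or set by FoxP3 in T cells, 0 were past 2-fold in C26 scrambled against Sham or between the tumour arrays, and 9 of 10 had a difference below 0 in C26 scrambled against Sham (median -0.20, beside 0.03 over all genes). Over all genes, 11600 of 25206 were below 0 in C26 scrambled against Sham, with 3.34% at least 2-fold higher and 4.33% lower. Between the tumour arrays 1.44% were at least 2-fold higher and 1.06% lower, and 2.17% were at least 2-fold lower in C26 FoxP1-shRNA than in Sham. Only 4 of the 10 genes lay above the array median on at least 1 array. Ptpn22, a phosphatase of lymphocytes, was the 1 gene at least 2-fold lower in C26 FoxP1-shRNA than in Sham, with 3.60 in C26 FoxP1-shRNA, 4.23 in C26 scrambled and 5.07 in Sham. Tnfrsf18, a surface receptor of regulatory T cells, had 4.75 in C26 FoxP1-shRNA, 4.31 in C26 scrambled and 4.95 in Sham, and Ikzf2, which marks regulatory T cells and other cells, had 6.44 in C26 FoxP1-shRNA, 5.93 in C26 scrambled and 6.18 in Sham.

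T cell markers, like Foxp3, were highest in Sham. All 11 measured T cell markers were below Sham on both tumour arrays, and their mean log2 value was 3.54 in C26 FoxP1-shRNA, 3.86 in C26 scrambled and 5.05 in Sham. In each tumour array 6 of 11 were at least 2-fold lower than in Sham. Over all genes the shares were 2.17% in C26 FoxP1-shRNA and 4.33% in C26 scrambled. Trac, the constant region of the T cell receptor alpha chain, had 3.08 in C26 FoxP1-shRNA, 3.58 in C26 scrambled and 6.84 in Sham. The coreceptor Cd4 had 3.15 in C26 FoxP1-shRNA, 3.31 in C26 scrambled and 5.04 in Sham, and Cd3g, a chain of the receptor complex, had 2.53 in C26 FoxP1-shRNA, 2.31 in C26 scrambled and 5.04 in Sham. Cd3e, another chain, had 3.26 in C26 FoxP1-shRNA, 5.68 in C26 scrambled and 6.09 in Sham, and was the 1 T cell marker past 2-fold between the tumour arrays. Between these arrays 8 of 11 were lower with FoxP1-shRNA and 3 higher, where 13767 of 25206 genes were lower. The median of the 11 was -0.16 there, beside -0.31 for Foxp3. None of the 11 was at 0 on any array, since RMA values have no true zero. In RNA of whole muscle, fewer T cells and less RNA per T cell cannot be told apart, and the part of T cells in the Foxp3 values was not tested.

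The markers of regulatory T cells, several of which are also in the list of FoxP3 targets, differed less. All 9 measured genes, Foxp3 included, were below Sham in C26 scrambled, with 1 past 2-fold (4.33% of all genes), and their mean log2 value was 4.23 in C26 FoxP1-shRNA, 4.11 in C26 scrambled and 4.55 in Sham. That gene was Nrp1, a receptor that endothelial cells also carry, with 7.14 in C26 FoxP1-shRNA, 6.90 in C26 scrambled and 7.99 in Sham. Between the tumour arrays the median of the list was 0.15, whereas Foxp3 had -0.31. Il2ra, the high-affinity interleukin 2 receptor chain, had 3.75 in C26 FoxP1-shRNA, 3.60 in C26 scrambled and 3.97 in Sham, and the inhibitory receptor Ctla4 had 2.75 in C26 FoxP1-shRNA, 2.71 in C26 scrambled and 3.01 in Sham, so that neither was lower with FoxP1-shRNA than in C26 scrambled. Of B cells, in which FoxP1 is also expressed, Ighm, the immunoglobulin mu chain, had 4.36 in C26 FoxP1-shRNA, 5.79 in C26 scrambled and 9.05 in Sham, but the median of the 7 measured B cell markers was -0.18 both between the tumour arrays and in C26 scrambled against Sham.

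**Figure D5:**
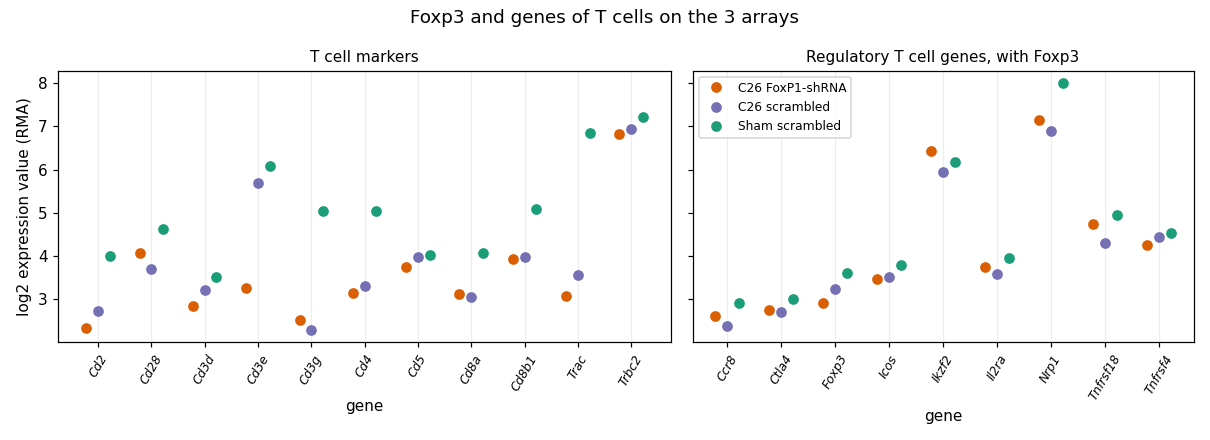
Log2 expression value (y axis) of 11 T cell markers (left) and 9 genes of regulatory T cells including Foxp3 (right) on the 3 arrays (1 point is 1 pool of 3 mice). All 11 T cell markers have their highest point in Sham (mean 5.05), and Foxp3 has its lowest in C26 FoxP1-shRNA (2.92).

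Markers of other cell types in the muscle also moved between the arrays. Neutrophil markers had a median log2 difference of -0.47 in C26 FoxP1-shRNA against C26 scrambled and of 1.28 in C26 scrambled against Sham, the direction of Foxp1 in both, with 2 of 10 and 5 of 10 past 2-fold. Over all genes, 1.44% were at least 2-fold higher and 1.06% lower in the former comparison, and 3.34% higher and 4.33% lower in the latter. Fibroblast markers had medians of 0.26 and -0.76, and muscle fibre markers 0.10 and -0.35, the opposite direction. Macrophage markers had medians of -0.17 and 0.08, endothelial markers -0.03 and 0.18, and satellite cell markers 0.11 and 0.07. These small medians cover genes past 2-fold in opposite directions. In C26 scrambled against Sham, 3 of 9 macrophage markers were at least 2-fold higher and 2 lower. Of 10 endothelial markers 2 were higher and 1 lower there, and of 10 satellite cell markers 1 was higher and 1 lower. With FoxP1-shRNA against C26 scrambled, 2 macrophage, 1 endothelial and 1 satellite cell marker were at least 2-fold lower, and 0 were higher. Smooth muscle and pericyte markers had 0.19 and -0.11, and Schwann cell and neuron markers 0.01 and 0.03. The part of these cells in the values of Foxp1, which many cell types express, was not tested. The shRNA is driven by the U6 promoter, which is active in all cell types, so that the cells in which Foxp1 was lower were not measured either.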

How the data were processed

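Muscle RNA was hybridized to 3 Mouse Gene 2.0 ST arrays, each with a pool of 3 mice. The deposited log2 values were made by the authors by RMA (per the submitters' processing notes with R 2.15.1 and affy 1.36.1), with background correction, quantile normalization and a Brainarray summary to 1 value per Entrez gene. The genome build is not given in the sources used here. The platform annotation paired 23185 of 25206 genes with a symbol, and the 2021 others are unnamed here.

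Log2 differences and folds were computed gene by gene with Python 3.11.15, numpy 2.4.6 and pandas 2.3.3, plots with matplotlib 3.10.9, and no filter on dim genes was set except for likeness. With 1 array per group no test was possible, and their number limits the precision. The computation was tested on simulated data. Family members and gene lists (189 of 207 symbols measured) were chosen with earlier results of these data known. Named were the 4 members, their measured neighbours (3 on each side, by the RefSeq gene table), the 10 genes most like Foxp1 and, per list and comparison, genes among those with the largest differences. Hdac1 and Hdac3 are named for their role, outside this rule, with their values already seen. Promoter windows are from RefSeq, GRCm38.p6. Alternatives were 4 scalings (median centring, quantile normalization, centring on reference genes, and cyclic loess in R 4.3.3 with limma 3.58.1), a filter on dim genes and a size of 1.5-fold. The FoxO1-shRNA group was not analysed here.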

Additional observations from a re-analysis of the deposited data

How the results depend on the processing

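At a size of 1.5-fold in place of 2-fold, the count of FoxP genes went from 0 to 1 for those lower in C26 FoxP1-shRNA than in C26 scrambled, 1 for those higher and 1 for those lower in C26 FoxP1-shRNA than in Sham, and 1 for those higher in C26 scrambled than in Sham. Under the 4 other scalings the Foxp1 difference lay between -0.81 and -0.74 in C26 FoxP1-shRNA against C26 scrambled, between 0.07 and 0.21 in C26 FoxP1-shRNA against Sham, and between 0.88 and 0.95 in C26 scrambled against Sham. The differences of Foxp2 and Foxp3 kept their sign under all 4, while that of Foxp4 in C26 scrambled against Sham lay between -0.00 and 0.05. Without genes that were dim on all arrays, 13.0% became 18.5% for Foxp2 with FoxP1-shRNA, and the T cell median in C26 FoxP1-shRNA against Sham was -1.52 in place of -1.14. The scalings moved the median of all genes by at most 0.096. No paired analysis was possible because each group is 1 array. Leaving out an array would remove a group.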

Other observations

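Erythroid genes, of which 3 of the 7 listed were measured, had the highest list median in C26 FoxP1-shRNA against C26 scrambled (1.24 on the log2 scale). There 2 of 3 were at least 2-fold higher, beside 1.44% of all genes, and the median in C26 FoxP1-shRNA against Sham was 1.97. The 1.24 was the value of Hbb-bs, dim at 2.81 in C26 FoxP1-shRNA, 1.58 in C26 scrambled and 2.40 in Sham, so that this median is uncertain. The other gene past 2-fold was Alas2, with 7.98 in C26 FoxP1-shRNA, 6.51 in C26 scrambled and 5.98 in Sham.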
